A study of Mus musculus with 10 samples.

Results

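Transcript levels of 7 genes that make, inactivate or sense oestrogen were read from polyA RNA sequencing of mouse ovary, in 10 libraries. The genes, chosen by symbol from the 24306 genes of the deposited tables, were Cyp19a1, Hsd17b1, Srd5a1, Hsd17b2, Sult1e1, Esr1 and Esr2, and 7 of 7 were found. All animals were 6 weeks old and of a mixed C57BL/6 and 129 strain, and all, controls included, had floxed alleles (f/f) of Rara, of Rarb and of Rarg, which encode the nuclear receptors of retinoic acid. The Dmrt1 het Rar mutants (n = 2) were Sf1-Cre+ and had 1 floxed Dmrt1 allele (fl/+). The Rar mutants (n = 3) were Sf1-Cre+ with Dmrt1 +/+. The controls (n = 5) were Sf1-Cre- with Dmrt1 +/+. Sf1-Cre uses the Nr5a1 promoter, so recombination is directed to the somatic, steroid-producing lineages of the gonad and not to the oocyte, and no control carried the Cre. The series' design text speaks of 2 genotypes with 5 replicates each, which is met by pooling the 5 libraries with Sf1-Cre, called Rar-deleted here. The labels give no stage of the oestrous cycle, and nothing in them says that the libraries of a group came from separate animals, so p-values measure the spread between these libraries.

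Ovarian oestrogen is made in granulosa cells, where aromatase turns androgens supplied by theca cells into oestrogens and a reducing 17-beta-hydroxysteroid dehydrogenase turns weak oestrone into potent oestradiol. An oxidising dehydrogenase and a sulfotransferase undo this activity, and a 5-alpha-reductase draws on the same androgens as aromatase. Oestradiol acts through 2 nuclear receptors, of which ESR2 is the main form in granulosa cells and ESR1 the main form in theca, stroma and surface epithelium. Aromatase is induced by follicle-stimulating hormone in growing follicles and is shut off after the ovulatory surge of luteinising hormone, so its transcript varies through the cycle.

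Libraries held 21064856 to 25920131 counts. The 4 libraries with title numbers under 7800 (both Dmrt1 het Rar mutants, Rar mutant 1 and control 1) lay between -55.9 and -43.8 on the first principal component of log2 CPM (34.8% of the variance), and the other 6 lay between 4.46 and 57.8. Title number is therefore treated as a possible batch, and Dmrt1 het status cannot be told apart from it beyond what 1 Rar mutant and 1 control library in the same range show. In CPM, which scale a gene's count to a common library total, Rarg averaged 21.2 ± 1.1 CPM in Dmrt1 het Rar mutants, 17.2 ± 2.24 CPM in Rar mutants and 29.5 ± 3.58 CPM in controls (SD, n = 2, 3 and 5), and against controls edgeR gave an adjusted p of 0.247 in Dmrt1 het Rar mutants and 0.104 in Rar mutants. Rara averaged 29.4 ± 0.904 CPM in Dmrt1 het Rar mutants, 26.7 ± 5.53 CPM in Rar mutants and 25.8 ± 6.56 CPM in controls. Rarb averaged 2.37 ± 0.374 CPM in Dmrt1 het Rar mutants, 2.61 ± 0.263 CPM in Rar mutants and 3.13 ± 0.851 CPM in controls. Dmrt1 had 5 counts in Dmrt1 het Rar mutant 2 and 0 in each other library. Whole-gene counts do not separate a floxed exon from the rest of its transcript. Defining markers of the ovary were present in each library, with 7 oocyte genes summing to 191 to 646 CPM and none of them at 0 counts. Of the theca genes, Cyp17a1, which makes androgens, had 135 to 14497 counts and Insl3, a theca hormone gene, 3 to 66 counts.

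No member passed the threshold (edgeR quasi-likelihood test, Benjamini-Hochberg adjusted p under 0.05 over all genes) in any comparison. In Rar-deleted libraries against controls 0 of 6 tested members were called, where 0.111% of 18954 genes were, and Sult1e1 was removed by the filter on low counts. In Rar mutants against controls 0 of 7 members were called, where 0.00972% of 20570 genes were. In Dmrt1 het Rar mutants 0 of 7 members were called against controls, where 0.0194% of genes were, and 0 of 7 against Rar mutants, where 0% of genes were. At an unadjusted p under 0.05, 1 member was lower in Rar-deleted libraries, against 8.47% of all genes in either direction. In Rar mutants 1 was higher and 3 were lower (9.45% of all genes). In Dmrt1 het Rar mutants 1 was higher and 1 lower than in controls (17.3%), and 3 were higher and 3 lower than in Rar mutants (16.9%). DESeq2 called more: Hsd17b2 in all 3 comparisons with controls, and Esr2 in Dmrt1 het Rar mutants against both other groups, as given with each gene. With title number as a term edgeR called 0 members in each comparison, where 0.211% of genes were called in Rar-deleted libraries, 0.413% in Rar mutants and 0.00486% in Dmrt1 het Rar mutants against controls, and 0% against Rar mutants.

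**Figure D1:**
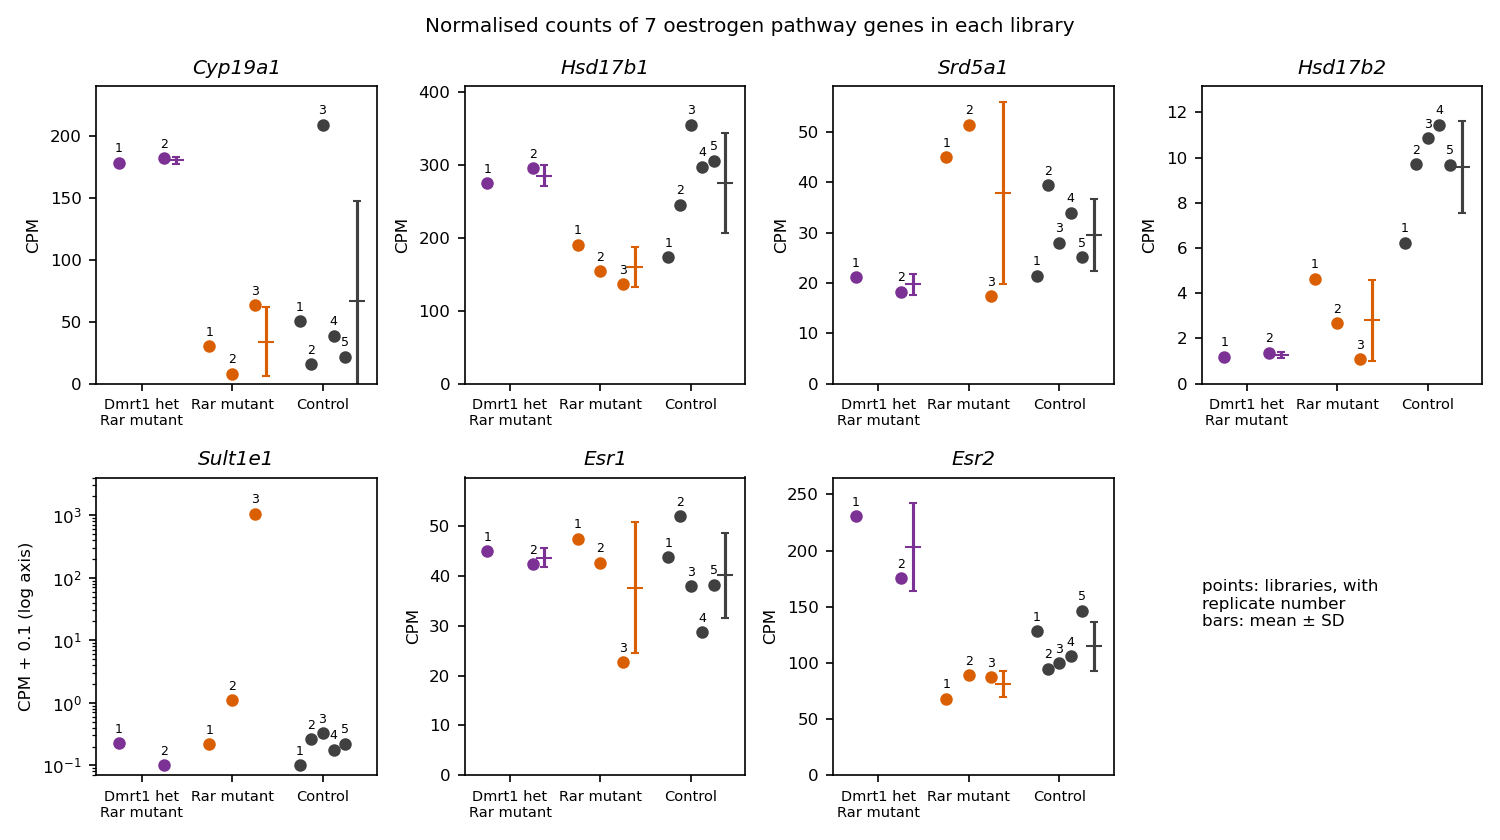
Normalised counts (CPM, y axis) of the 7 genes in each library, with Dmrt1 het Rar mutants (n = 2), Rar mutants (n = 3) and controls (n = 5) on the x axis; points carry replicate numbers, bars are mean ± SD (drawn down to 0 where the SD is larger than the mean), and Sult1e1 is on a log axis after adding 0.1 CPM. Hsd17b2 lay between 1.07 and 4.65 CPM in the 5 libraries with Sf1-Cre and between 6.22 and 11.5 CPM in the controls, while Sult1e1 reached 1055 CPM in Rar mutant 3.

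Cyp19a1 (ENSMUSG00000032274, GRCm38 chromosome 9, 54165937 to 54268110, minus strand), which encodes aromatase, was the most variable gene of synthesis. It had 178 and 182 CPM in Dmrt1 het Rar mutants. It had 30.2, 8.05 and 63.2 CPM in Rar mutants, and 50.2, 15.5, 209, 38.6 and 21.5 CPM in controls. Both Dmrt1 het Rar mutants were above all Rar mutants and above 4 of 5 controls, and control 3 was higher than every other library. Rar mutants and controls overlapped. The spread within a group was wide: the highest control had 13.5 times the level of the lowest, and the highest Rar mutant 7.85 times that of the lowest, whereas the Dmrt1 het Rar mutants differed by 1.02 times.

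The log2 fold change of Cyp19a1 was 2.41 in Dmrt1 het Rar mutants against Rar mutants (SE 1.02, edgeR adjusted p = 0.275). It was 1.43 in Dmrt1 het Rar mutants against controls (SE 0.88, adjusted p = 0.392) and -0.98 in Rar mutants against controls (SE 0.85, adjusted p = 0.797). Control 3 sets the sign of the last value, which was 0.11 without that library. In Rar-deleted libraries against controls the value was 0.47 (SE 0.85, adjusted p = 0.857), and -0.26 with title number as a term of the fit. Among the libraries with title numbers under 7800, the values were 178 and 182 CPM in Dmrt1 het Rar mutants, 30.2 CPM in Rar mutant 1 and 50.2 CPM in control 1. Among those of 7800 and over, Rar mutants against controls gave -0.99 (SE 1.33, adjusted p = 0.787).

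Markers of granulosa cells were read beside Cyp19a1. The summed level of 6 markers (Fshr, Inha, Inhba, Amh, Foxl2 and Nr5a2), of which 0 were at 0 counts in any library, was 3487 and 3832 CPM in Dmrt1 het Rar mutants. It was 2400, 2095 and 3466 CPM in Rar mutants and 2183, 2538, 6048, 2992 and 3096 CPM in controls, with control 3 again the highest. The markers did not share 1 order of libraries: Amh, which encodes anti-Müllerian hormone, had 164 CPM in Rar mutant 2, where Cyp19a1 was lowest, and 69.3 CPM in control 1. In Dmrt1 het Rar mutants against Rar mutants 6 of 6 markers had a positive fold change, 0 called and 2 at an unadjusted p under 0.05, with a median log2 of 0.58 against -0.01 over all genes tested. The part of these markers in the Cyp19a1 values was not tested. In whole-ovary RNA, fewer cells of a type and less RNA per cell cannot be told apart.

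RefSeq gives 3 transcription starts for Cyp19a1. The window around the start nearest the coding sequence, 342 bases before the nearest start codon, is shown because it belongs to the gene whose transcript varied most among the enzymes of synthesis (chr9:54193694-54193993, GRCm38.p6, minus strand, from 250 bases before the start to 50 after it, 5′ to 3′, with no match to the motifs given with Sult1e1).
Cyp19a1: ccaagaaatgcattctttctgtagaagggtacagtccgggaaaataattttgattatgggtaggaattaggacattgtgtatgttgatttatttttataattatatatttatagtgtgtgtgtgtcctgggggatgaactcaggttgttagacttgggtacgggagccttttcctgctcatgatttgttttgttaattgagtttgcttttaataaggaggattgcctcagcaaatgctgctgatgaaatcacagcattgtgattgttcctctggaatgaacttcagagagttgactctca

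Hsd17b1 (ENSMUSG00000019301, chromosome 11, 101078411 to 101080527, plus strand) encodes the dehydrogenase that reduces oestrone to oestradiol in granulosa cells. It had 275 and 295 CPM in Dmrt1 het Rar mutants. It had 190, 154 and 136 CPM in Rar mutants, and 173, 245, 354, 297 and 305 CPM in controls. Rar mutants lay below 4 of 5 controls and overlapped with control 1, and the Dmrt1 het Rar mutants lay within the range of the controls and above all Rar mutants. The log2 fold change was -0.78 in Rar mutants against controls (SE 0.22, edgeR adjusted p = 0.240). It was 0.05 in Dmrt1 het Rar mutants against controls (SE 0.25, adjusted p = 0.929) and 0.83 against Rar mutants (SE 0.27, adjusted p = 0.220). With title numbers of 7800 and over alone, Rar mutants had 154 and 136 CPM and controls 245 to 354 CPM, without overlap, and the log2 fold change was -1.05 (SE 0.19, adjusted p = 0.0558).

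Srd5a1 (ENSMUSG00000021594, chromosome 13, 69573449 to 69611442, minus strand) encodes a 5-alpha-reductase, which turns progesterone and testosterone into 5-alpha-reduced steroids that aromatase cannot use. It had 21.2 and 18.2 CPM in Dmrt1 het Rar mutants. It had 45.0, 51.4 and 17.3 CPM in Rar mutants, and 21.5, 39.4, 28, 34.0 and 25.1 CPM in controls. Rar mutants 1 and 2 lay above every control and Rar mutant 3 below every control, so the Rar mutants shared no direction, while both Dmrt1 het Rar mutants lay just below the lowest control, as 14.3% of genes did. The log2 fold change was -0.59 in Dmrt1 het Rar mutants against controls (SE 0.37, edgeR adjusted p = 0.404) and -0.94 against Rar mutants (SE 0.40, adjusted p = 0.281). In Rar mutants against controls it was 0.36 (SE 0.31, adjusted p = 0.801), and 0.70 without Rar mutant 3 (SE 0.22, adjusted p = 0.476). The exons of Srd5a1 overlap those of Gm17108, on the same strand, which itself had 5 to 15 counts per library.

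Hsd17b2 (ENSMUSG00000031844, chromosome 8, 117701904 to 117759027, plus strand) encodes the dehydrogenase that oxidises oestradiol back to oestrone and testosterone to androstenedione. It had 1.18 and 1.36 CPM in Dmrt1 het Rar mutants, from 28 and 31 counts. It had 4.65, 2.66 and 1.07 CPM in Rar mutants (118, 64 and 25 counts), and 6.22, 9.70, 10.9, 11.5 and 9.69 CPM in controls (152, 244, 237, 291 and 241 counts). Every library with Sf1-Cre lay below every control. Of the 7 members, Hsd17b2 alone was lower without overlap in Rar-deleted libraries, where 1.08% of the genes tested were. The same held for 2.74% of genes in Rar mutants and 14.3% in Dmrt1 het Rar mutants against controls. Within title numbers under 7800 the Dmrt1 het Rar mutants had 1.18 and 1.36 CPM, Rar mutant 1 had 4.65 CPM and control 1 had 6.22 CPM, and within those of 7800 and over the 2 Rar mutants had 2.66 and 1.07 CPM and the 4 controls 9.69 to 11.5 CPM.

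The log2 fold change of Hsd17b2 was -2.12 in Rar-deleted libraries against controls (SE 0.39, edgeR adjusted p = 0.0804). It was -1.77 in Rar mutants (SE 0.40, adjusted p = 0.134) and -2.91 in Dmrt1 het Rar mutants (SE 0.52, adjusted p = 0.156), each against controls. Between Dmrt1 het Rar mutants and Rar mutants it was -1.14 (SE 0.51, adjusted p = 0.293). The call depended on the tool and on single libraries, and the direction did not in any setting run. DESeq2 called it in Rar-deleted libraries (log2 fold change -2.13, adjusted p = 4.20e-05, where 0.745% of genes were called). It also did so in Rar mutants (-1.77, adjusted p = 0.000955, 1.74% of genes) and in Dmrt1 het Rar mutants (-2.92, adjusted p = 6.40e-07, 1.78% of genes), each against controls.

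Without Rar mutant 1, which had the highest level of the libraries with Sf1-Cre, edgeR called Hsd17b2 in Rar-deleted libraries (-2.60, adjusted p = 0.0143) and in Rar mutants (-2.36, adjusted p = 0.0144). Without control 1, the lowest control, edgeR called it in Dmrt1 het Rar mutants (-3.03, adjusted p = 0.0382). Calls over all genes also rose in Rar mutants without Rar mutant 1, and in Dmrt1 het Rar mutants without control 1 (numbers at the end). With title numbers of 7800 and over alone, 2 Rar mutants against 4 controls gave -2.48 (SE 0.36, adjusted p = 0.0293), where 0.724% of 19610 genes were called. In the authors' deposited table of Rar mutants against controls, Hsd17b2 alone of the 7 members was among the 185 genes listed, at -1.23 on the log2 scale (SE 0.28, adjusted p = 0.00332, rank 90 by p). That value comes from the authors' own fit with another version of DESeq2, so its size is not compared with those above.

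Epithelial markers were read beside Hsd17b2. The summed level of the 7 surface epithelium markers (Krt7, Krt18, Krt19, Upk3b, Upk1b, Lrrn4 and Msln), 0 of them at 0 counts in any library, was 110 and 139 CPM in Dmrt1 het Rar mutants. It was 184, 294 and 353 CPM in Rar mutants and 190, 444, 358, 422 and 316 CPM in controls, which overlapped. The 4 libraries with title numbers under 7800 were the lowest, with 184 CPM in Rar mutant 1 and 190 CPM in control 1. The oviduct epithelium list (Ovgp1, Foxj1, Epcam, Cdh1 and Wfdc2) summed to 11.3 and 13.8 CPM in Dmrt1 het Rar mutants, 14.3 to 42.9 CPM in Rar mutants and 25.9 to 63.4 CPM in controls, with 0 of 5 at 0 counts. Its genes did not share a direction. Ovgp1, which encodes the oviduct glycoprotein, had 1.77 and 4.39 CPM in Dmrt1 het Rar mutants, 4.37, 1.87 and 31.3 CPM in Rar mutants and 1.39 to 2.36 CPM in controls. Foxj1, a regulator of motile cilia, had only 1 to 43 counts per library and was highest in Rar mutant 1, at 1.69 CPM. Epcam, an epithelial adhesion gene, had 1.14 and 2.15 CPM in Dmrt1 het Rar mutants, 5.67, 6.52 and 4.77 CPM in Rar mutants and 12.8 to 39.0 CPM in controls. In Rar-deleted libraries 3 of the 4 oviduct genes tested were lower and 1 higher at an unadjusted p under 0.05. All 7 surface epithelium genes had a negative fold change in Rar-deleted libraries (median log2 -0.80, 0 called, against 0.00 over all genes tested), as did 6 of 7 in Rar mutants (median -0.49, 0 called). In Dmrt1 het Rar mutants against controls all 7 were negative (median -1.47, 0 called). All 7 were at an unadjusted p under 0.05 there, as 17.3% of all genes were. The part of epithelial markers in the Hsd17b2 values, and that of title number in the markers, was not tested.

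Sult1e1 (ENSMUSG00000029272, chromosome 5, 87575969 to 87591594, minus strand) encodes oestrogen sulfotransferase, which adds a sulfate to oestradiol and oestrone so that they no longer bind their receptors. Its transcript was near the limit of detection in 8 libraries and abundant in 1. It had 3 and 0 counts in Dmrt1 het Rar mutants. It had 3, 24 and 24572 counts in Rar mutants, and 0, 4, 5, 2 and 3 counts in controls. Rar mutant 3 thus reached 1055 CPM, 0.0948% of its counts and rank 112 among all genes, and Rar mutant 2, at 0.996 CPM, was the only other library above the controls, whose highest value was 0.229 CPM.

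The level in Rar mutant 3 was 9170 times that of the controls, with their counts and library sizes pooled (95% interval 5464 to 16776, counting error only). That in Rar mutant 2 was 8.66 times the same pooled level (4.30 to 18.1). In Rar mutant 1 the ratio was 1.03 (0.189 to 3.68), and in Dmrt1 het Rar mutants it was 0.560 (0.103 to 2.01), and both intervals include a ratio of 1. The edgeR log2 fold change in Rar mutants against controls was 11.51 (SE 2.35, adjusted p = 0.105). It was 12.1 without Rar mutant 1 (adjusted p = 0.0110), where calls over all genes also rose (numbers at the end). Without Rar mutant 2 or Rar mutant 3 the gene no longer passed the filter on low counts. In Dmrt1 het Rar mutants against Rar mutants the log2 fold change was -12.31 (SE 3.82, adjusted p = 0.216). Both values rest on Rar mutant 3.

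Genes induced in granulosa cells by the ovulatory surge were read beside Sult1e1. The summed level of 9 such genes (Ptgs2, Pgr, Ereg, Btc, Tnfaip6, Ptx3, Has2, Adamts1 and Rgcc), with 0 at 0 counts in any library, was 92.4 and 76.1 CPM in Dmrt1 het Rar mutants. It was 116, 757 and 1641 CPM in Rar mutants and 54.9 to 117 CPM in controls. Pgr, the progesterone receptor gene, had 133 CPM in Rar mutant 3 and 1.07 to 2.48 CPM in every other library. Ptgs2, Ereg, Btc, Tnfaip6, Ptx3 and Has2 were also highest in Rar mutant 3. Adamts1 made up 620 of the summed CPM in Rar mutant 2 and had 169 CPM in Rar mutant 3. Rgcc had 68.3, 107 and 53.1 CPM in Rar mutants and 20.2 to 71.1 CPM in controls, which overlapped. In Rar mutants against controls 9 of 9 genes of this list had a positive fold change (median log2 4.93 against -0.02 over all genes tested). None was called, and 8 were at an unadjusted p under 0.05, as 9.45% of all genes were. Without Rar mutant 3 the median was 1.26 and 0 were called, and without Rar mutant 1 it was 5.49 and 7 were called. Calls over all genes also rose without Rar mutant 1. The 5 adrenal cortex markers summed to 1.01 and 1.14 CPM in Dmrt1 het Rar mutants, 3.31, 299 and 274 CPM in Rar mutants and 0.655 to 1.23 CPM in controls, where up to 3 of 5 were at 0 counts, as 1 was in each Dmrt1 het Rar mutant and in Rar mutant 3. Of these, Akr1b7, an aldo-keto reductase gene, made up 248 and 261 CPM in Rar mutants 2 and 3. Cyp11b1, the adrenal 11-beta-hydroxylase gene, had 2 and 5 counts in Dmrt1 het Rar mutants, 61, 1204 and 292 counts in Rar mutants and 0 to 15 counts in controls. Cyp11b2, the aldosterone synthase gene, had 0 counts in both Dmrt1 het Rar mutants, 3, 25 and 8 counts in Rar mutants and 0 or 1 count in controls. Cyp21a1, the adrenal 21-hydroxylase gene, had 1 count in each Dmrt1 het Rar mutant, 0 or 1 count in Rar mutants and 0 to 5 counts in controls. Mc2r, the last of the 5, had 14 and 13 counts in Dmrt1 het Rar mutants, 9, 4 and 1 counts in Rar mutants and 3 or 4 counts in controls. The 5 blood genes, haemoglobins and Alas2, summed to 371 and 593 CPM in Dmrt1 het Rar mutants, 470, 2003 and 2706 CPM in Rar mutants and 297 to 1635 CPM in controls. The part of these lists in the Sult1e1 values was not tested.

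Of the 7 members, 5 had RefSeq promoter windows, 8 windows in all, each of 300 bases. They were searched on both strands for AAGGTCA (the NR5A core, bound by the product of Nr5a1), TGACGTCA (the cAMP response element), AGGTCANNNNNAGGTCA and AGGTCANNAGGTCA (direct repeats bound by retinoic acid receptors), and GGTCANNNTGACC (the core of an oestrogen response element). The only match was AAGGTCA, read as TGACCTT, 113 bases before the start of Sult1e1, and 4.72% of 32851 windows hold it. TGACGTCA is in 1.79% of windows, GGTCANNNTGACC in 0.07%, and each direct repeat in 0.00913%. The direct repeats and the oestrogen response element contain parts of the NR5A core. The Sult1e1 window (chr5:87591562-87591861, GRCm38.p6, minus strand, 5′ to 3′) is shown because its transcript had the widest range of the 7, with the match in capitals.
Sult1e1: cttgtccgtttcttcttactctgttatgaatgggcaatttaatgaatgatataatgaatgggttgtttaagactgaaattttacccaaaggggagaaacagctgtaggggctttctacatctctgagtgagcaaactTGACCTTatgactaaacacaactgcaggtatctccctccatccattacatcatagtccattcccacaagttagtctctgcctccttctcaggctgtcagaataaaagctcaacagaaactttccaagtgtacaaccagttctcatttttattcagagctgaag

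Esr2 (ENSMUSG00000021055, chromosome 12, 76120419 to 76177259, minus strand) encodes oestrogen receptor beta, the receptor of granulosa cells. It had 231 and 175 CPM in Dmrt1 het Rar mutants. It had 68.0, 88.8 and 87.1 CPM in Rar mutants, and 128, 94.7, 99.4, 106 and 146 CPM in controls. The 3 groups did not overlap: both Dmrt1 het Rar mutants were above every control, and all Rar mutants below every control, although the gap between Rar mutant 2 and control 2 was small. Among all genes tested, 14.1% were higher without overlap in Dmrt1 het Rar mutants against controls, and 2.74% were lower without overlap in Rar mutants against controls. Against Rar mutants, 19.8% of genes were higher without overlap in Dmrt1 het Rar mutants, as Esr2, Cyp19a1 and Hsd17b1 were, and 19.5% were lower, as 0 members were.

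The log2 fold change of Esr2 in Dmrt1 het Rar mutants against Rar mutants was 1.32 (SE 0.22, edgeR adjusted p = 0.115). Against controls it was 0.82 in Dmrt1 het Rar mutants (SE 0.20, adjusted p = 0.243) and -0.50 in Rar mutants (SE 0.18, adjusted p = 0.393). DESeq2 called Esr2 in Dmrt1 het Rar mutants against Rar mutants (1.31, adjusted p = 0.000125, among 3.66% of genes called) and against controls (0.82, adjusted p = 0.0312). In edgeR the contrast with Rar mutants passed without Rar mutant 1 (1.21, adjusted p = 0.0446), where calls over all genes also rose (numbers at the end). Among title numbers under 7800, the Dmrt1 het Rar mutants had 231 and 175 CPM, Rar mutant 1 had 68.0 CPM and control 1 had 128 CPM. In all Rar-deleted libraries, where the pooled groups lay on opposite sides of the controls, the log2 fold change was 0.18 (SE 0.32, adjusted p = 0.850), and -0.12 with title number as a term.

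Esr1 (ENSMUSG00000019768, chromosome 10, 4611593 to 5005614, plus strand) encodes oestrogen receptor alpha. It had 45.0 and 42.5 CPM in Dmrt1 het Rar mutants. It had 47.6, 42.7 and 22.7 CPM in Rar mutants, and 43.8, 52.0, 37.9, 28.7 and 38.3 CPM in controls. The groups overlapped, and Rar mutant 3 was the lowest of the 10 libraries. The log2 fold change was 0.12 in Dmrt1 het Rar mutants against controls (95% interval -0.42 to 0.67, edgeR adjusted p = 0.827) and -0.09 in Rar mutants against controls (-0.57 to 0.39, adjusted p = 0.948). It was 0.22 in Dmrt1 het Rar mutants against Rar mutants (-0.38 to 0.81, adjusted p = 0.722). The sign of the first changed with title number as a term (-0.15), that of the second without Rar mutant 3 (0.16), and that of the third without the same library (-0.03). In Rar-deleted libraries against controls the value was 0.00 (SE 0.21, adjusted p = 0.997).

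**Figure D2:**
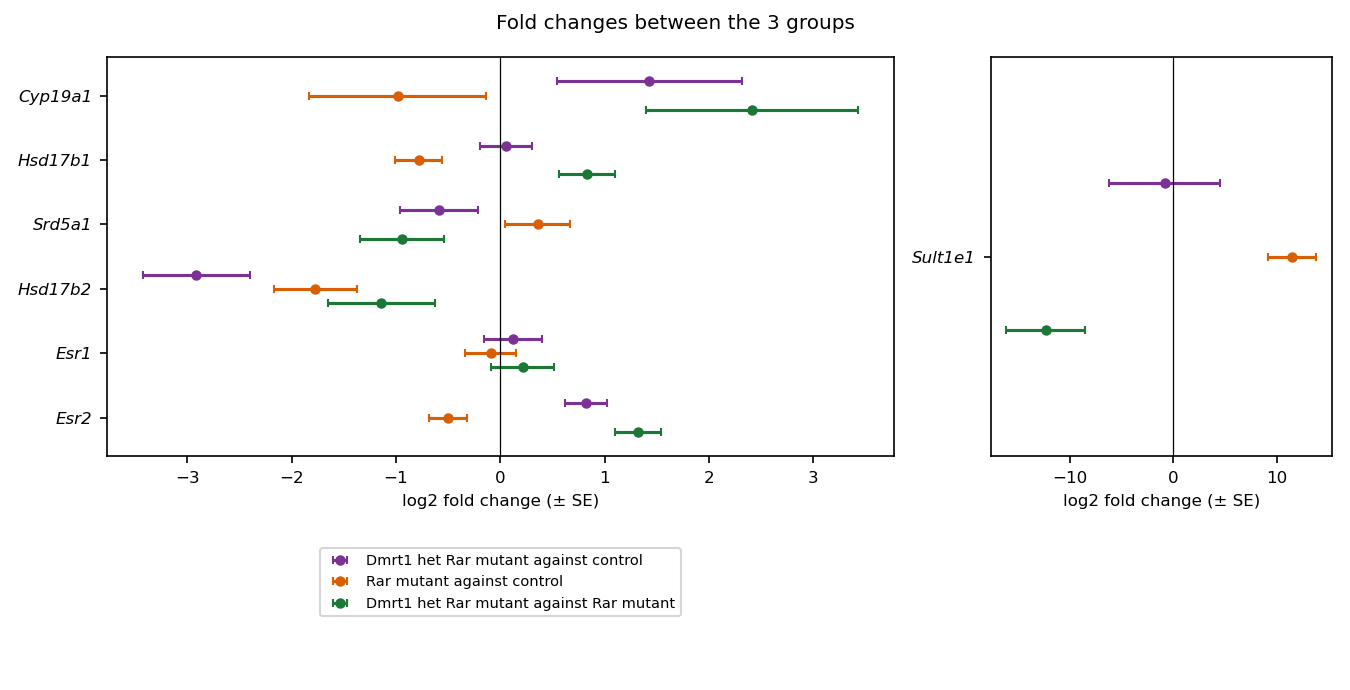
Log2 fold change with its standard error (x axis) of each gene (y axis) in 3 comparisons: Dmrt1 het Rar mutants against controls, Rar mutants against controls, and Dmrt1 het Rar mutants against Rar mutants, with Sult1e1 on a separate axis. Hsd17b2 lay left of 0 in all 3, whereas Esr2 was at 0.82 in Dmrt1 het Rar mutants and -0.50 in Rar mutants against controls.

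Levels were compared between genes on the FPKM scale, which divides by transcript length, as a description without a test. In Dmrt1 het Rar mutants the mean FPKM was 211 ± 10.5 for Hsd17b1, 59.8 ± 11.6 for Esr2, 39.6 ± 0.532 for Cyp19a1, 6.78 ± 0.716 for Srd5a1, 3.18 ± 0.136 for Esr1, 0.654 ± 0.0651 for Hsd17b2 and 0.0505 ± 0.0714 for Sult1e1 (SD, n = 2). Each step of that order was larger than the SDs of the genes beside it, with only 2 libraries behind each SD. In Rar mutants the mean FPKM was 120 ± 20.5 for Hsd17b1, 24.1 ± 3.38 for Esr2, 13.1 ± 6.18 for Srd5a1, 7.52 ± 6.22 for Cyp19a1, 2.75 ± 0.952 for Esr1 and 1.45 ± 0.930 for Hsd17b2 (SD, n = 3). The mean of Sult1e1 there, 286 ± 495 FPKM, stands for 1 library at 858 FPKM and 2 under 1 FPKM. In Rar mutants the neighbours from Srd5a1 down to Hsd17b2 did not differ from each other beyond their SDs, nor did Sult1e1 from Hsd17b1.

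In controls the mean FPKM was 204 ± 51.2 for Hsd17b1, 33.9 ± 6.35 for Esr2, 14.7 ± 17.7 for Cyp19a1, 10.2 ± 2.51 for Srd5a1, 4.95 ± 1.04 for Hsd17b2, 2.92 ± 0.638 for Esr1 and 0.0940 ± 0.0687 for Sult1e1 (SD, n = 5). Esr2 and Cyp19a1, and Cyp19a1 and Srd5a1, did not differ there beyond their SDs. Hsd17b1 led the order in controls and Dmrt1 het Rar mutants and was the highest gene in 9 of 10 libraries. Hsd17b2 ranked above Esr1 in controls and below it in both groups with Sf1-Cre.

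**Figure D3:**
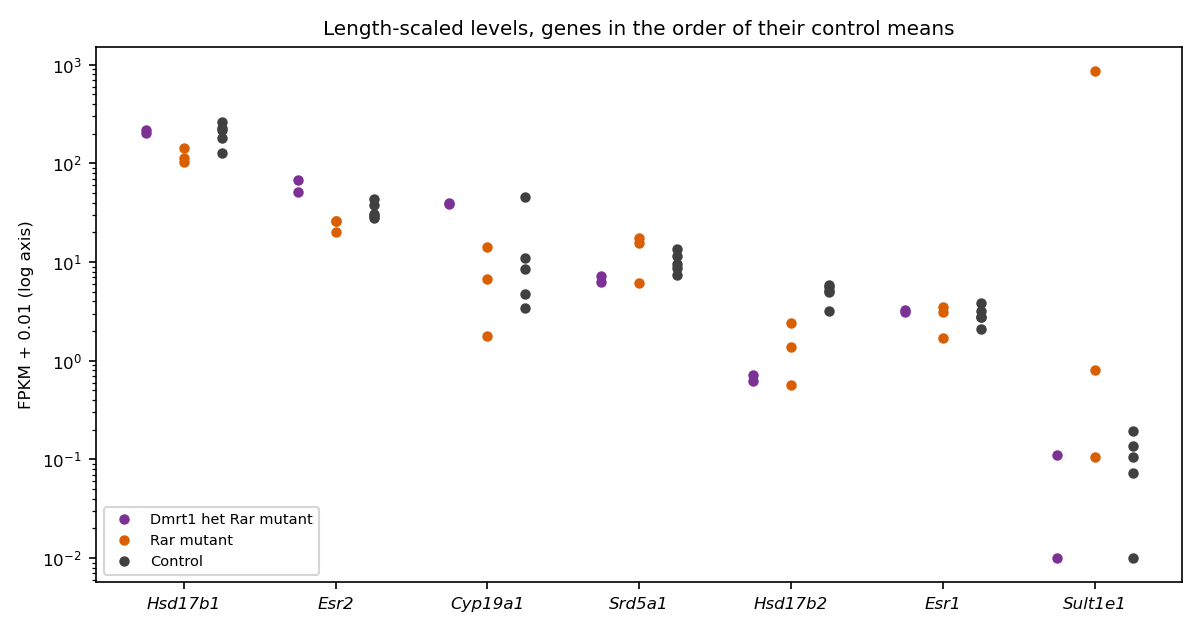
FPKM plus 0.01 (log y axis) of the 7 genes, in the order of their control means (x axis), with 1 point per library, coloured for Dmrt1 het Rar mutants (n = 2), Rar mutants (n = 3) and controls (n = 5). Hsd17b1 was above 100 FPKM in every library, and Sult1e1 was at 858 FPKM in Rar mutant 3 and under 1 FPKM elsewhere.

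Ratios within a library were formed from the same FPKM values for 3 pairs of genes, again without a test. The ratio of Hsd17b1 to Hsd17b2, the enzymes that reduce and oxidise oestrogens, was 335 and 312 in Dmrt1 het Rar mutants. It was 58.8, 83.4 and 182 in Rar mutants, and 36.3 to 46.9 in controls. Controls were close to each other in this ratio, and every library with Sf1-Cre lay above them. Its divisor, Hsd17b2, was by itself lower without overlap in those libraries, whereas Hsd17b1 overlapped. The ratio is therefore not a result separate from Hsd17b2, and the share of other gene pairs that part in this way was not computed. The ratio of Esr2 to Esr1 was 20.8 and 16.7 in Dmrt1 het Rar mutants, 5.80, 8.43 and 15.6 in Rar mutants and 7.38 to 15.5 in controls. The 2 Dmrt1 het Rar mutants were above all others, although the gap from 16.7 to 15.6 in Rar mutant 3 was small. Esr2 by itself was higher without overlap there than in controls, as 14.1% of genes were. The ratio of Cyp19a1 to Hsd17b1 was 0.192 and 0.183 in Dmrt1 het Rar mutants, 0.0470, 0.0155 and 0.138 in Rar mutants and 0.0187 to 0.175 in controls, where the last 2 groups overlapped.

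For the 3 members whose log2 CPM spanned more than 2 between libraries, the 5 genes with the most similar pattern were found among 13756 genes, by the root mean square (RMS) difference of centred log2 CPM over 10 libraries. For Cyp19a1 (span 4.68) they included Slc24a4 (0.58), Inhba (0.63), Grem1 (0.65) and Dnah2 (0.68). Inhba, which encodes a subunit of activin and inhibin, had 643 and 812 CPM in Dmrt1 het Rar mutants, 299, 43.6 and 541 CPM in Rar mutants and 237 to 1632 CPM in controls. Like Cyp19a1, whose pattern it was chosen by, it was lowest in Rar mutant 2 and highest in control 3.

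For Hsd17b2 (span 3.32) the nearest genes were Egfl6 (0.57), St14 (0.57), Btnl2 (0.62), Chrm4 (0.64) and Apoc1 (0.65). St14, which encodes the epithelial protease matriptase, had 0.799 and 1.01 CPM in Dmrt1 het Rar mutants, 1.14, 1.08 and 1.1 CPM in Rar mutants and 2.54 to 8.59 CPM in controls. Egfl6, which encodes a secreted protein with EGF repeats, had 5.85 and 5.92 CPM in Dmrt1 het Rar mutants, 14.6, 4.11 and 3.99 CPM in Rar mutants and 16.0 to 30.9 CPM in controls. Both were chosen for their likeness to Hsd17b2 in these same libraries, and like it were lower in every library with Sf1-Cre than in every control. Over all genes tested, 1.08% were lower without overlap in Rar-deleted libraries.

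For Sult1e1 (span 13.6) the nearest genes lay further away, at 1.25 for Nts, 1.46 for Ereg, 1.63 for Ptgs2, 1.73 for Tnfaip6 and 1.79 for Btc. Nts, which encodes the peptide neurotensin, had 13 and 10 counts in Dmrt1 het Rar mutants, 14, 264 and 11205 counts in Rar mutants and 5 to 18 counts in controls. Ereg, which encodes the growth factor epiregulin, had 25 and 16 counts in Dmrt1 het Rar mutants, 44, 252 and 12974 counts in Rar mutants and 15 to 71 counts in controls. As with Sult1e1, whose pattern they were chosen by, Rar mutant 3 was highest and Rar mutant 2 next.

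**Figure D4:**
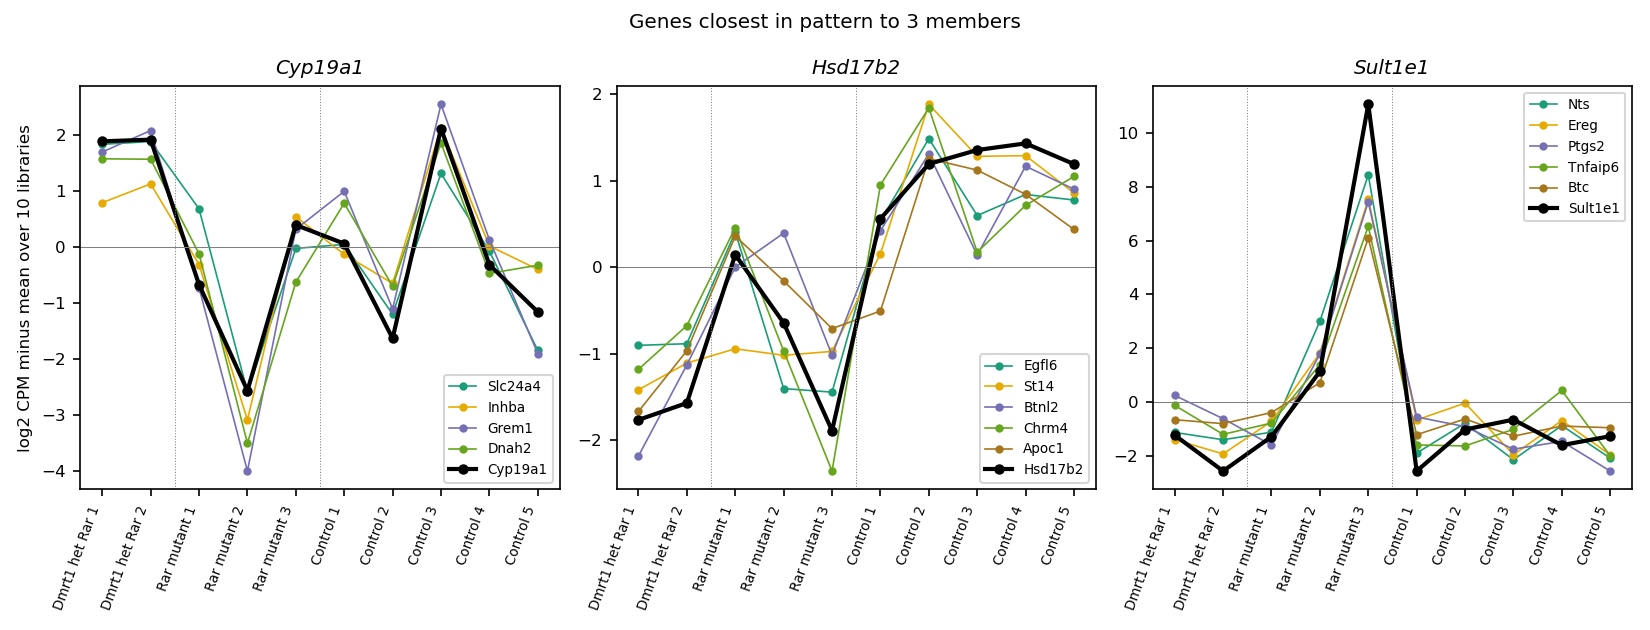
Log2 CPM minus the gene's mean over the 10 libraries (y axis), by library (x axis; Dmrt1 het Rar mutants, Rar mutants, controls), for Cyp19a1, Hsd17b2 and Sult1e1 (thick black lines) and for genes nearest to each (thin lines; 4 for Cyp19a1 and 5 for each of the others). The Sult1e1 panel has its peak at Rar mutant 3, and in the Cyp19a1 panel Rar mutant 2 is the lowest library.

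Other genes of the pathway were grouped in 6 lists, and edgeR called 0 of their members in every comparison, while DESeq2 called Papss2, Fdx1, Nr0b1 and Fshr, as given with each. Counts at an unadjusted p under 0.05 stand against 17.3% of all genes in Dmrt1 het Rar mutants and 9.45% in Rar mutants, each against controls. Without Rar mutant 1, edgeR called Hsd17b12, Por and Pgr higher and Hsd3b1 and Foxl2 lower in Rar mutants against controls. Calls over all genes also rose in that setting (numbers at the end). Among the other 17-beta-hydroxysteroid dehydrogenases, 3 of 7 tested genes had a positive fold change in Dmrt1 het Rar mutants against controls (median log2 -0.10) and 3 of 7 in Rar mutants against controls (median -0.08, and 0.38 without control 1). At an unadjusted p under 0.05, 1 was lower in Dmrt1 het Rar mutants and 1 higher in Rar mutants. Hsd17b12, which works in fatty acid elongation and can reduce oestrone, had the smallest p in Rar mutants, with 86.2, 136 and 133 CPM there and 65.9 to 95.7 CPM in controls (log2 fold change 0.56, SE 0.17, adjusted p = 0.282). Hsd17b10 and Hsd17b11 followed, at -0.45 (SE 0.26) and 0.44 (SE 0.31), and Hsd17b11 was at -0.11 without Rar mutant 2.

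Genes of oestrogen conjugation, sulfate release and hydroxylation had a median log2 of -0.10 in Dmrt1 het Rar mutants (3 of 7 positive) and 0.06 in Rar mutants (4 of 7 positive, with -0.10 without Rar mutant 2) against controls. At an unadjusted p under 0.05, 1 was higher and 1 lower in Dmrt1 het Rar mutants, and 0 in Rar mutants. Papss2, which makes the sulfate donor that sulfotransferases need, had 82.2 and 73.6 CPM in Dmrt1 het Rar mutants, 50.7 to 55.4 CPM in Rar mutants and 41.9 to 53.7 CPM in controls. DESeq2 called Papss2 higher in Dmrt1 het Rar mutants against both other groups, whereas edgeR gave adjusted p of 0.185 against controls and 0.203 against Rar mutants. Cyp1b1, an oestrogen hydroxylase, was at 0.32 (SE 0.18) and Slc35b2, which carries the sulfate donor into the Golgi, at -0.30 (SE 0.17) in Rar mutants against controls.

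Of the androgen reduction and androgen receptor genes, 1 of 5 was positive in Dmrt1 het Rar mutants (median log2 -0.01) and 0 of 5 in Rar mutants (median -0.19) against controls. At an unadjusted p under 0.05, 0 differed in Dmrt1 het Rar mutants and 1 was lower in Rar mutants. Akr1c14, which encodes a 3-alpha-hydroxysteroid dehydrogenase, had 326, 222 and 228 CPM in Rar mutants and 303 to 554 CPM in controls (log2 fold change -0.65, SE 0.22, adjusted p = 0.340). Srd5a3 was at -0.19 (SE 0.12). Akr1c18, which encodes a progesterone-inactivating enzyme of the regressing corpus luteum, had 114, 183 and 488 CPM in Rar mutants and 50.4, 30.5, 69.2, 1806 and 224 CPM in controls. Its log2 fold change of -0.74 (SE 1.19) rests on control 4 and was 1.48 (SE 0.67, edgeR adjusted p = 0.612) without it, which leaves 1 of 5 positive.

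Genes that supply androgen and electrons to aromatase were positive for 1 of 8 in Dmrt1 het Rar mutants (median log2 -0.32) and 5 of 8 in Rar mutants (median 0.24) against controls, and 3 were higher in Rar mutants at an unadjusted p under 0.05. Fdx1, the electron carrier of mitochondrial steroid hydroxylases, had 402 and 479 CPM in Dmrt1 het Rar mutants, 1258, 1046 and 1848 CPM in Rar mutants and 447 to 1003 CPM in controls. DESeq2 called Fdx1 higher in Rar mutants against controls and lower in Dmrt1 het Rar mutants against Rar mutants, where edgeR gave 1.02 (SE 0.28, adjusted p = 0.205) and -1.65 (SE 0.37, adjusted p = 0.185). Star, which brings cholesterol into mitochondria, had 624, 1039 and 6444 CPM in Rar mutants and 81.7 to 769 CPM in controls (log2 fold change 2.27, SE 0.82, and 0.56 without Rar mutant 3). Por, the reductase that feeds electrons to aromatase, had 65.3, 97.0 and 219 CPM in Rar mutants and 50.7 to 81.7 CPM in controls (0.98, SE 0.32, and 0.32 without Rar mutant 3).

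Relatives, coregulators and targets of the oestrogen receptors were positive for 10 of 13 in Dmrt1 het Rar mutants against controls (median log2 0.43) and for 2 of 13 in Rar mutants (median -0.06), where 7 of 13 were positive without control 1 (median 0.02). At an unadjusted p under 0.05, 4 were higher and 1 lower in Dmrt1 het Rar mutants, and 1 was higher in Rar mutants. Medians over all genes tested were -0.02 in both comparisons, with 48.0% and 46.9% of genes positive. Greb1, an oestrogen-induced coactivator, had 798 and 860 CPM in Dmrt1 het Rar mutants, 606, 247 and 308 CPM in Rar mutants and 371 to 687 CPM in controls. Pgr, described with Sult1e1, had the smallest p of this list in Rar mutants (4.93, SE 1.17, adjusted p = 0.155) and rests on Rar mutant 3, without which it was 0.24. Esrrb, an orphan relative of the receptors, was at -0.61 (SE 0.30) and Gper1, a membrane receptor for oestrogens, at -0.41 (SE 0.27).

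Regulators of Cyp19a1 were positive for 6 of 11 in Dmrt1 het Rar mutants (median log2 0.30) and 2 of 11 in Rar mutants (median -0.26) against controls, and for 10 of 11 in Dmrt1 het Rar mutants against Rar mutants (median 0.47). In the last comparison 2 were higher and 0 lower at an unadjusted p under 0.05, against 16.9% of all genes. Fshr, Inha, Inhba, Foxl2 and Nr5a2 are also among the granulosa cell markers above, so the lists are not independent. Against controls, 3 were higher and 1 lower at an unadjusted p under 0.05 in Dmrt1 het Rar mutants, and 1 higher and 1 lower in Rar mutants. Nr0b1, which encodes the corepressor DAX1, had 5.09 and 3.42 CPM in Dmrt1 het Rar mutants, 1.18, 2.45 and 4.08 CPM in Rar mutants and 6.20 to 10.8 CPM in controls. It was thus lower in every library with Sf1-Cre than in every control, as 1.08% of genes tested were in Rar-deleted libraries. Its log2 fold changes were -0.97 (SE 0.42, edgeR adjusted p = 0.273) in Dmrt1 het Rar mutants and -1.70 (SE 0.37, adjusted p = 0.123) in Rar mutants. DESeq2 called Nr0b1 in Rar mutants and in Rar-deleted libraries. Fshr, the receptor for follicle-stimulating hormone, had 69.2 and 78.4 CPM in Dmrt1 het Rar mutants, 21.2, 26.5 and 26.4 CPM in Rar mutants and 21 to 74.1 CPM in controls. Its log2 fold change in Dmrt1 het Rar mutants against Rar mutants was 1.58 (SE 0.41, adjusted p = 0.203), which DESeq2 called. Nr5a1, whose own promoter drives the Cre, had 402 and 360 CPM in Dmrt1 het Rar mutants, 346, 268 and 280 CPM in Rar mutants and 166 to 316 CPM in controls.

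**Figure D5:**
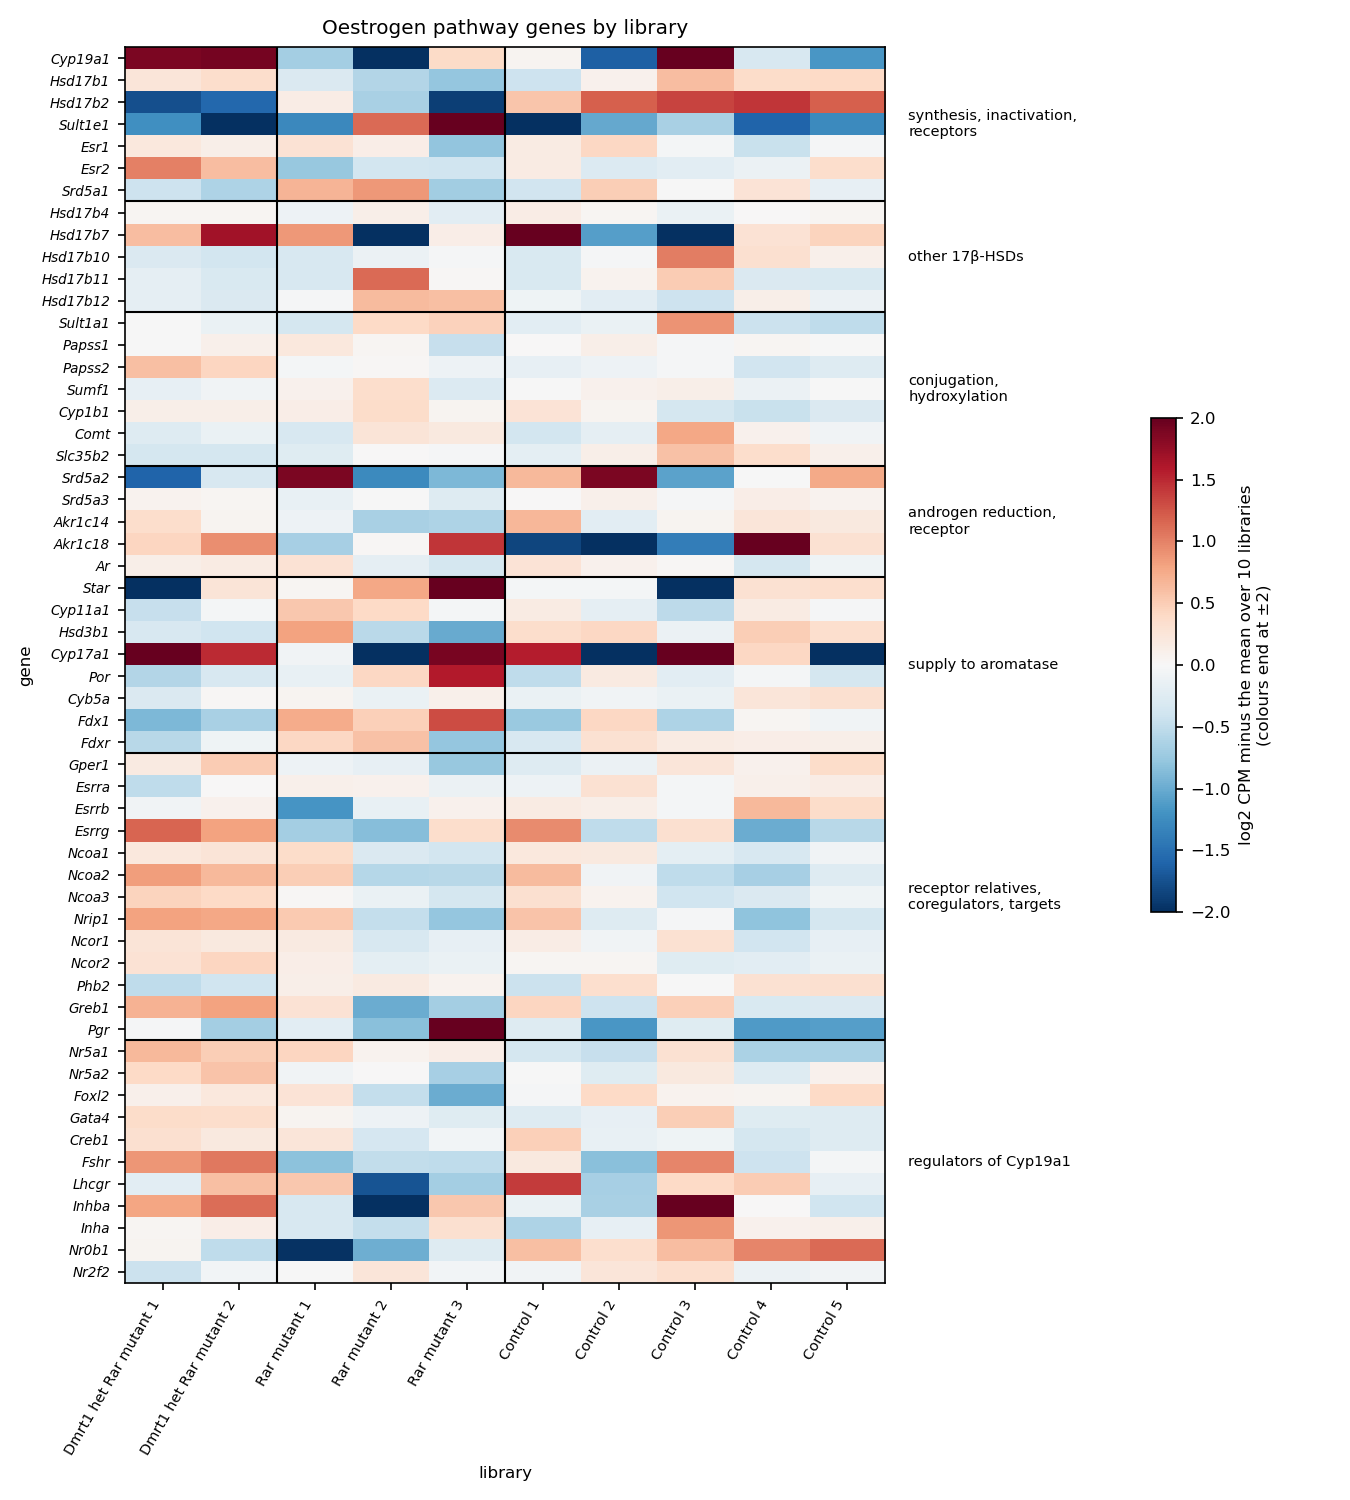
Log2 CPM minus the mean over the 10 libraries (colour, ending at ±2) of the 7 genes and of measured genes of the 6 pathway lists (rows), by library (columns; Dmrt1 het Rar mutants, Rar mutants, controls). Hsd17b2 and Nr0b1 are below every control in the 5 libraries with Sf1-Cre, as 1.08% of genes tested were, and Pgr and Star are highest in Rar mutant 3.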

How the data were processed

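Whole gonads were homogenised in Trizol, RNA was purified with RNeasy Micro columns, and polyA libraries were made with the KAPA Stranded mRNA-Seq kit, per the labels. The submitters' processing notes name Trimmomatic 0.32, STAR 2.4.2a, SAMtools 1.0 and DESeq2 1.12.3 with GRCm38 (mm10); the counting tool, its strand setting and the annotation release are not given in the sources used here. The deposited raw counts give 1 whole number per Ensembl gene and library. The deposited FPKM values were scaled by the authors with median-of-ratios size factors (within 0.0698%). The authors' deposited table lists 185 genes and has columns, per the file headers, for the mean count (used here as a signal), log2 fold change and standard error, the Wald statistic (a score) and p-values, raw and adjusted. Means of the counts over 3 Rar mutant and 5 control libraries matched that column within 0.0348%.

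Counts were tested in R 4.3.3 with edgeR 4.0.16 (quasi-likelihood, TMM, filterByExpr, robust, two-sided), in a fit of Rar-deleted against control libraries and a fit of the 3 groups, with adjustment over all genes tested. The SE beside a log2 fold change is its size over the square root of F, an approximation, and 95% intervals use that SE. Printed CPM use TMM library sizes of the 3-group fit. At 0 counts the limit is 3 counts (0.118 to 0.137 CPM); intervals of Sult1e1 ratios are exact binomial, and both cover counting error only. Alternatives were DESeq2 1.42.0, other scaling, no filter, title number or replicate number as a term, title numbers of 7800 and over alone, each pair of groups alone, and each library left out; the fit with title number as a term and without Rar mutant 3, and list genes with each library left out, were added after seeing the data. The fits were tested on simulated counts without any difference by title number. That test therefore does not show how they perform where such a difference is present. No pair of libraries within a group was a duplicate (chi-square per degree of freedom of 14.6 or more); pairs across groups were not compared.

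Members and lists were chosen with earlier results of these data known. Named were all 7 members, list genes that passed or else the 3 with the smallest p in Rar mutants, and the 5 genes with the pattern most like a member's, of which 1 is not reported here; Greb1 and single markers of granulosa, theca, epithelial and adrenal cells were named after their values were seen. Positions are from GENCODE M21 and promoter windows from RefSeq, both on GRCm38.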

Additional observations from a re-analysis of the deposited data

Results flagged for a closer look

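The 3 values below, of Cyp19a1, Sult1e1 and Esr1, stood far from the others of their group, by a gap to the nearest library of more than 0.71 of the range of 5 libraries, which chance gives in about 1 of 20 groups. Cyp19a1 was 209 CPM in control 3, with a gap of 0.821 of the range of the controls, and that library also had the highest summed granulosa cell markers. Sult1e1 was 1055 CPM in Rar mutant 3, with a gap of 0.999 of the range of the 5 Rar-deleted libraries. Esr1 was 22.7 CPM in the same library, with a gap of 0.795 of that range.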

How the results depend on the processing

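No member was called by edgeR in the comparisons as reported. DESeq2 called 1 in Rar-deleted libraries, 1 in Rar mutants and 2 in Dmrt1 het Rar mutants against controls, and 1 in Dmrt1 het Rar mutants against Rar mutants. With title numbers of 7800 and over alone 1 (Hsd17b2) was called in Rar mutants, and with the 2 compared groups alone 1 (Hsd17b2) in Dmrt1 het Rar mutants against controls. Leaving out 1 library gave 0 to 1 in Rar-deleted libraries, 0 to 2 in Rar mutants, 0 to 1 in Dmrt1 het Rar mutants against controls and 0 to 1 against Rar mutants, the calls coming without control 1 for the comparison of Dmrt1 het Rar mutants with controls and without Rar mutant 1 for the others. Over all genes, the 21 calls in Rar-deleted libraries became 180 with DESeq2, 40 with title number as a term, 2 with that term and without Rar mutant 3, 52 without control 1 and 5 to 11 without any of controls 2 to 5, Rar mutant 2 or either Dmrt1 het Rar mutant. The 2 calls in Rar mutants became 372 with DESeq2, 85 with title number as a term, 142 with title numbers of 7800 and over alone, 1 with those groups alone, 384 without Rar mutant 1, 7 without control 2 and 1 without control 3, control 5 or Rar mutant 3. The 4 in Dmrt1 het Rar mutants against controls became 329 with DESeq2, 1 with title number as a term, 364 without control 1, 2 without control 2, 3 or 5, 1 when Dmrt1 het Rar mutant 1 was left out and 0 when Dmrt1 het Rar mutant 2 was. The 0 against Rar mutants became 626 with DESeq2 and 335 without Rar mutant 1.

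Signs turned as follows, and the cause was not tested. With title number as a term, Rar-deleted libraries gave -0.26 for Cyp19a1, -0.16 for Esr1 and -0.12 for Esr2, and Dmrt1 het Rar mutants against controls gave -0.15 for Esr1 and 10.9 for Sult1e1. With that term and without Rar mutant 3, Rar-deleted libraries gave -0.87 for Cyp19a1 and -0.036 for Esr2, and Rar mutants gave 0.11 for Esr1. Leaving out 1 library gave -1.80 to 0.11 for Cyp19a1 and -0.30 to 0.16 for Esr1 in Rar mutants, and -0.10 to 0.15 for Esr1, -0.13 to 0.35 for Esr2 and -0.22 to 0.20 for Srd5a1 in Rar-deleted libraries. In Dmrt1 het Rar mutants it gave -0.076 to 0.16 for Hsd17b1 and -4.54 to 0.13 for Sult1e1 against controls, and -0.032 to 0.42 for Esr1 against Rar mutants. In edgeR, Sult1e1 entered the comparison of Rar-deleted libraries with no low-count filter only, at 10.8 (adjusted p = 0.473).

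The labels do not say what the replicate numbers of the titles mark, and same-numbered libraries of Rar mutants and controls correlated at 0.435, 0.016 and 0.243. With a replicate block, edgeR called 0 members, and 0 genes in Rar-deleted libraries and in Dmrt1 het Rar mutants against controls, and signs turned in Rar-deleted libraries for Esr1 (-0.28) and Srd5a1 (-0.047) and in Dmrt1 het Rar mutants against controls for Esr1 (-0.24) and Sult1e1 (7.55). With means of log2(FPKM + 0.1), the order of levels changed: in controls Srd5a1 took rank 3 and Cyp19a1 rank 4, and in Rar mutants Hsd17b1 took rank 1, Esr2 rank 2, Srd5a1 rank 3, Cyp19a1 rank 4 and Sult1e1 rank 5. Other results kept their direction and their side of the threshold in the settings run, apart from the calls of single genes given in the report. Depth limits Sult1e1 in 8 libraries, which had 0 to 5 counts each.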
